A study of Mus musculus with 10 samples.

Results

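The genes described here are the replication-dependent histone cluster genes of the mouse, taken as every gene symbol in the deposited single-cell feature lists that begins with Hist1h, Hist2h, Hist3h or Hist4h, without the testis-specific Hist1h1t, Hist1h2ba and Hist1h2aa. There were 64 of them among 32285 genes: 5 of linker histone H1, 17 of H2A, 17 of H2B, 12 of H3 and 13 of H4. Of these, 51 lie on chromosome 13, 10 on chromosome 3, 2 on chromosome 11 and 1 on chromosome 6. On chromosome 13 (mm10, GRCm38.p6 gene positions from RefSeq) they fall into 3 clusters, when neighbours more than 100 kb apart are separated. The first holds 18 genes between 21715711 and 21837530, the second 5 genes between 22035122 and 22043658, and the third 28 genes between 23531044 and 23764412.

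The series concerns SMARCA5, the ATPase of ISWI chromatin remodelers, in the mouse testis. Whole-testis suspensions of 2 conditional knockout samples (Smarca5 fl/delta; Ddx4-Cre+, called cKO) were profiled by single-cell RNA sequencing in droplets (15000 cells loaded, 3′ v3.1 chemistry), after the tubules had been washed to deplete Leydig cells. Ddx4-Cre acts in germ cells, so the somatic cells of these testes carry 1 floxed and 1 deleted allele without recombination by Cre. Accessible chromatin was mapped by ATAC-seq on 50000 sorted cells per library in 8 libraries, 2 each of cKIT+ cells and of cells sorted on a 4C DNA content after Hoechst staining (pachytene or pachytene-like), from wild-type C57BL6 mice and from cKO mice. No wild-type single-cell sample was analysed here, so histone gene RNA is compared between cell classes within cKO testes and only accessibility is compared between genotypes. The labels do not state ages, or that replicates came from separate animals, and p-values therefore measure only the spread between these samples.

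Replication-dependent histone genes supply the core and linker histones that package DNA newly made in S phase. Their mRNAs mostly lack a poly(A) tail and end in a stem-loop bound by SLBP, and NPAT at the histone locus body drives their transcription, so that a library primed on poly(A) captures only the polyadenylated part of their output. In the male germline the last round of replication comes just before meiosis, after which replacement and testis-specific histones, and then protamines, take over.

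The 250 bases before the annotated start of 6 of the genes are shown because these 6 carry the main patterns described below: Hist1h1a and Hist1h2ap of cells around entry into meiosis, Hist1h2bp, Hist1h4a and Hist2h2aa1 of spermatids, and Hist1h1c of Leydig cells. The sequences are from RefSeq (GRCm38.p6, mm10), run 5′ to 3′ in the sense of the gene, and have capitals at every match, on either strand, to a CCAAT box, to the octamer of histone promoters (letters ATTTGCAT) or to a TATA box (with the letters TATAAA).
Hist1h1a (chr13:23763418-23763667, plus strand): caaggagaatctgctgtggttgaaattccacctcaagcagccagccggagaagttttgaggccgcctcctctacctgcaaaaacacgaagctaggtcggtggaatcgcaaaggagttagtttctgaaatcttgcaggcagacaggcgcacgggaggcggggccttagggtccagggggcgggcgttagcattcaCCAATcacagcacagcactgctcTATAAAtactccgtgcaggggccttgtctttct
Hist1h2ap (chr13:21833476-21833725, minus strand): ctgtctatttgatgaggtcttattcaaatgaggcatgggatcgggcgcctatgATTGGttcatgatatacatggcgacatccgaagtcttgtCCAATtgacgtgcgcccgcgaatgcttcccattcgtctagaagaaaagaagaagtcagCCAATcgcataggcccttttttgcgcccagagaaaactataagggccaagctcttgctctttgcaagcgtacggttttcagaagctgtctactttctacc
Hist1h2bp (chr13:21787238-21787487, plus strand): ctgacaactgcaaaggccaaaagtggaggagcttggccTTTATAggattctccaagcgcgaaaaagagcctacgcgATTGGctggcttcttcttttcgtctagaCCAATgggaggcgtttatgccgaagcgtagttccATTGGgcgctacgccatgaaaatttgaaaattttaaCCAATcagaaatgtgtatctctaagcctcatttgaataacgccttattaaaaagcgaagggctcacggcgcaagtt
Hist1h4a (chr13:23761250-23761499, minus strand): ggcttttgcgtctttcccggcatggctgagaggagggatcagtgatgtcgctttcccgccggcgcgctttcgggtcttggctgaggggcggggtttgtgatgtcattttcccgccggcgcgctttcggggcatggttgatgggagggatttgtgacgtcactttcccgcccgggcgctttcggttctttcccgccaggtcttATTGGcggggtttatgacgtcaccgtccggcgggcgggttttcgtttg
Hist1h1c (chr13:23738557-23738806, plus strand): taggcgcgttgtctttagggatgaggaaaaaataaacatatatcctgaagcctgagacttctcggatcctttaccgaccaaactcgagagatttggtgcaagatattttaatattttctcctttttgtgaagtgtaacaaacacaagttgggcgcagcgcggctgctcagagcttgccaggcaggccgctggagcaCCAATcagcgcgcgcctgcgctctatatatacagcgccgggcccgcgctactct
Hist2h2aa1 (chr3:96245247-96245496, plus strand): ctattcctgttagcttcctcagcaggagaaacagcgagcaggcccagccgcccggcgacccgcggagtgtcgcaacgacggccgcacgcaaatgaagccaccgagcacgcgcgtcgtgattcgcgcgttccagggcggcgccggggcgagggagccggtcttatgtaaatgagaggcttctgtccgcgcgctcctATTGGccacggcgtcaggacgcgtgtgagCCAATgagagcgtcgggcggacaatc

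Over windows from 250 bases before to 50 bases after the start, which RefSeq promoter entries gave for 59 of the 64 genes (there was no entry for Hist2h2be, Hist2h4, Hist1h3f, Hist1h2bc or Hist1h3a), CCAAT was present on either strand in 50 genes (84.7%), against 37.9% of all 27025 promoter windows. It was present in all 5 windows of H1, all 17 of H2A, all 15 of H2B and all 10 of H3 genes, but in 3 of 12 windows of H4 genes. TATAAA was present in 33 windows (55.9%, against 14.2% of all windows), among them 8 of the 12 of H4 genes. The place of a match was not weighed in this count. In H4 genes it lay 32 bases before the start of Hist1h4d. It lay 127 to 250 bases before that of Hist1h4n, Hist1h4m, Hist1h4i and Hist1h4f, and 16 and 2 bases before that of Hist1h4k and Hist1h4j. In Hist1h4a it lay after the start. The octamer ATTTGCAT was present in 11 windows (18.6%, against 1.75%), 6 of them of H2A and 5 of H2B genes. The windows of the 18 H2A and H2B genes that lie head to head, described below, overlap in pairs. A single site can therefore count for both genes of a pair, as the octamer of Hist1h2ae and Hist1h2bg does. None of the 3 motifs contains another, and a match describes these windows only. In the printed stretches the CCAAT nearest to the start lay 56 bases before the start of Hist1h1a, which also had TATAAA at 33 bases, 54 bases before that of Hist1h1c, and 100 bases before that of Hist1h2ap. Hist1h2bp had 4 CCAAT matches, at 76, 112, 146 and 174 bases. The TATAAA matches of Hist1h4a and Hist2h2aa1 lay 42 and 12 bases after the start and are not in the printed stretch.

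After filtering and removal of doublets, 7376 cells of sample 1 and 12901 of sample 2 remained, with medians of 3676 and 4331 UMIs, and 27 barcodes occurred in both. Clusters were named from marker genes, so each class name stands for cells like that type. The 8 classes with enough cells were differentiating spermatogonia (338 and 472 cells), leptotene or zygotene spermatocytes (579 and 1406), pachytene or diplotene spermatocytes (1990 and 2857), round spermatids (542 and 1021), elongating spermatids (977 and 1867), Sertoli cells (293 and 389), Leydig cells (638 and 1447) and macrophages (108 and 154). Clusters holding 25.2% and 24.5% of cells stayed unnamed. Of the markers of each class, all were detected in both samples, except 12 of 13 Sertoli markers in 1 sample and 1 leptotene or zygotene marker in the late cluster of sample 1. The leptotene or zygotene class joined an early cluster (317 and 720 cells), in which the 13 markers of differentiating spermatogonia summed to 1472 and 1327 CPM (counts scaled to 1000000 UMIs per sample and class), and a late cluster (262 and 686 cells), in which they summed to 233 and 273. The Sertoli class held RNA of spermatids: the 13 elongating spermatid markers summed there to 65519 and 52505 CPM. Smarca5 itself stood at 324 and 205 CPM in differentiating spermatogonia and at 22.1 and 40.3 in Sertoli cells, but a 3′ tag does not measure the deletion.

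Histone cluster genes gave 32652 UMIs in the kept cells, 7084 in sample 1 and 25568 in sample 2, which is 174 and 263 CPM. Few genes held most of them. The 12 genes with most UMIs took 88.8% of the total: Hist1h2bp (7257 UMIs, 22.2%), Hist2h2aa1 (5666, 17.4%), Hist1h4a (4553, 13.9%), Hist1h2bc (2968, 9.09%), Hist3h2a (1692, 5.18%), Hist1h1a (1374, 4.21%), Hist1h1c (1306, 4.00%), Hist1h2ap (1171, 3.59%), Hist2h3c2 (1006, 3.08%), Hist1h1e (880, 2.70%), Hist1h3a (573, 1.75%) and Hist1h4h (561, 1.72%). Hist1h2ao, Hist1h2bq and Hist1h4f had no UMI, and 25 genes, these 3 included, had fewer than 20. By family H2B genes took 34.9% of the UMIs, H2A genes 27.6%, H4 genes 20.3%, H1 genes 11.4% and H3 genes 5.85%. Several genes have near-identical copies, and how reads that fit several copies were counted is not given in the sources used here. The 5666 UMIs of Hist2h2aa1 against 6 of its copy Hist2h2aa2 are therefore an uncertain split, as are those among Hist2h3c2, Hist2h3c1 and Hist2h3b. Whether Hist1h2ao and Hist1h2bq had no UMI for the same reason, with Hist1h2ap and Hist1h2br counted in their place, was not tested.

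The summed level of the 64 genes was highest around entry into meiosis. Differentiating spermatogonia had 626 CPM in sample 1 (exact Poisson 95% interval 574 to 681, which covers counting error only) and 952 in sample 2 (903 to 1004). The early leptotene or zygotene cluster had 783 (713 to 859) and 1145 (1089 to 1203), above the spermatogonia of the same sample in both. The late cluster had 178 (149 to 211) and 334 (309 to 362), and pachytene or diplotene spermatocytes had the lowest level of all, 97.0 (92.2 to 102) and 137 (134 to 141). A second, smaller maximum followed in round spermatids, with 320 and 433 CPM, and elongating spermatids had 162 and 230. Among somatic classes Leydig cells had 402 and 478, macrophages 395 and 358, and Sertoli cells 163 and 331. Barcodes of sample 1 with 10 to 100 UMIs, which hold mostly free RNA, had 147 CPM. Sample 2 was higher than sample 1 in every class but macrophages, and the order of the germ classes was the same in both samples.

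**Figure D1:**
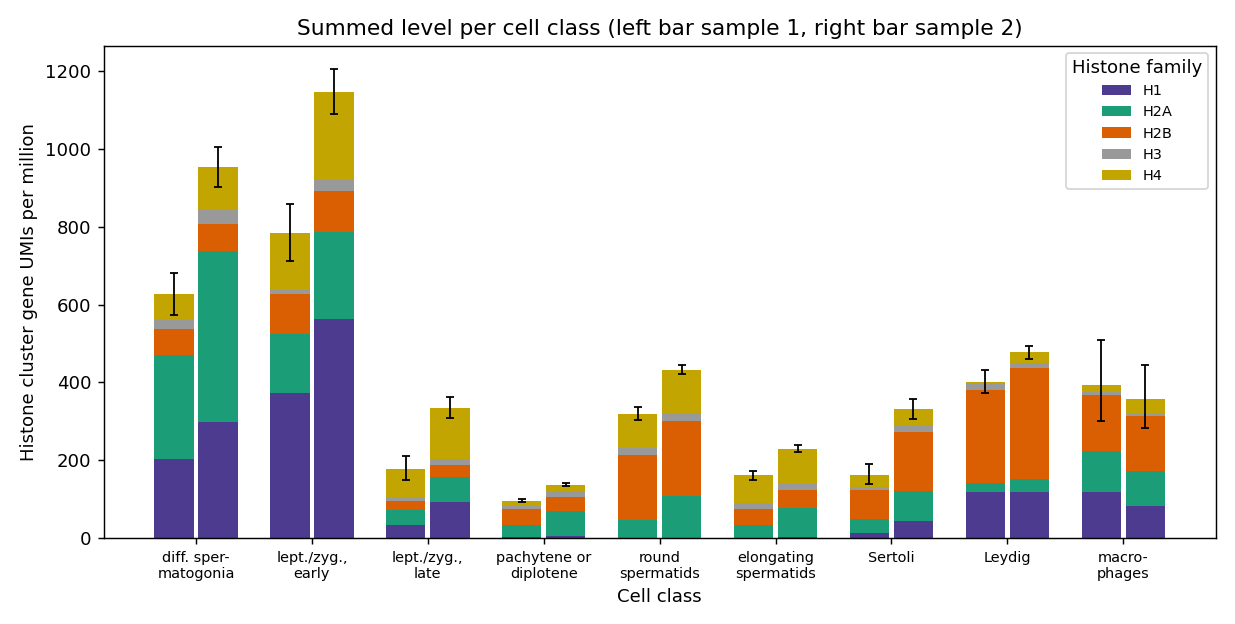
Summed CPM of the 64 histone cluster genes (vertical axis) in each cell class (horizontal axis), with a bar for each of the 2 samples, split by histone family, and exact Poisson 95% intervals of the sum. The early leptotene or zygotene cluster is the tallest, at 783 and 1145, and pachytene or diplotene spermatocytes the lowest, at 97.0 and 137.

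The gene behind the sum changed from class to class. Of the 39 genes with at least 20 UMIs, 10 were highest in differentiating spermatogonia, 13 in the early and 3 in the late leptotene or zygotene cluster, 1 in pachytene or diplotene spermatocytes, 4 in round spermatids, 3 in Leydig cells and 5 in macrophages. No gene was highest in elongating spermatids or Sertoli cells, and for 25 of the 39 the highest class was the same in both samples. Of the 5 in macrophages, Hist3h2a alone was highest there in both samples. A single UMI in macrophages stood for 6.58 CPM in sample 1 and 4.42 in sample 2. The same count over all genes was not made. In the summed level, germ over somatic classes differed by −0.14 and 0.01 on the log2 scale in the 2 samples.

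**Figure D2:**
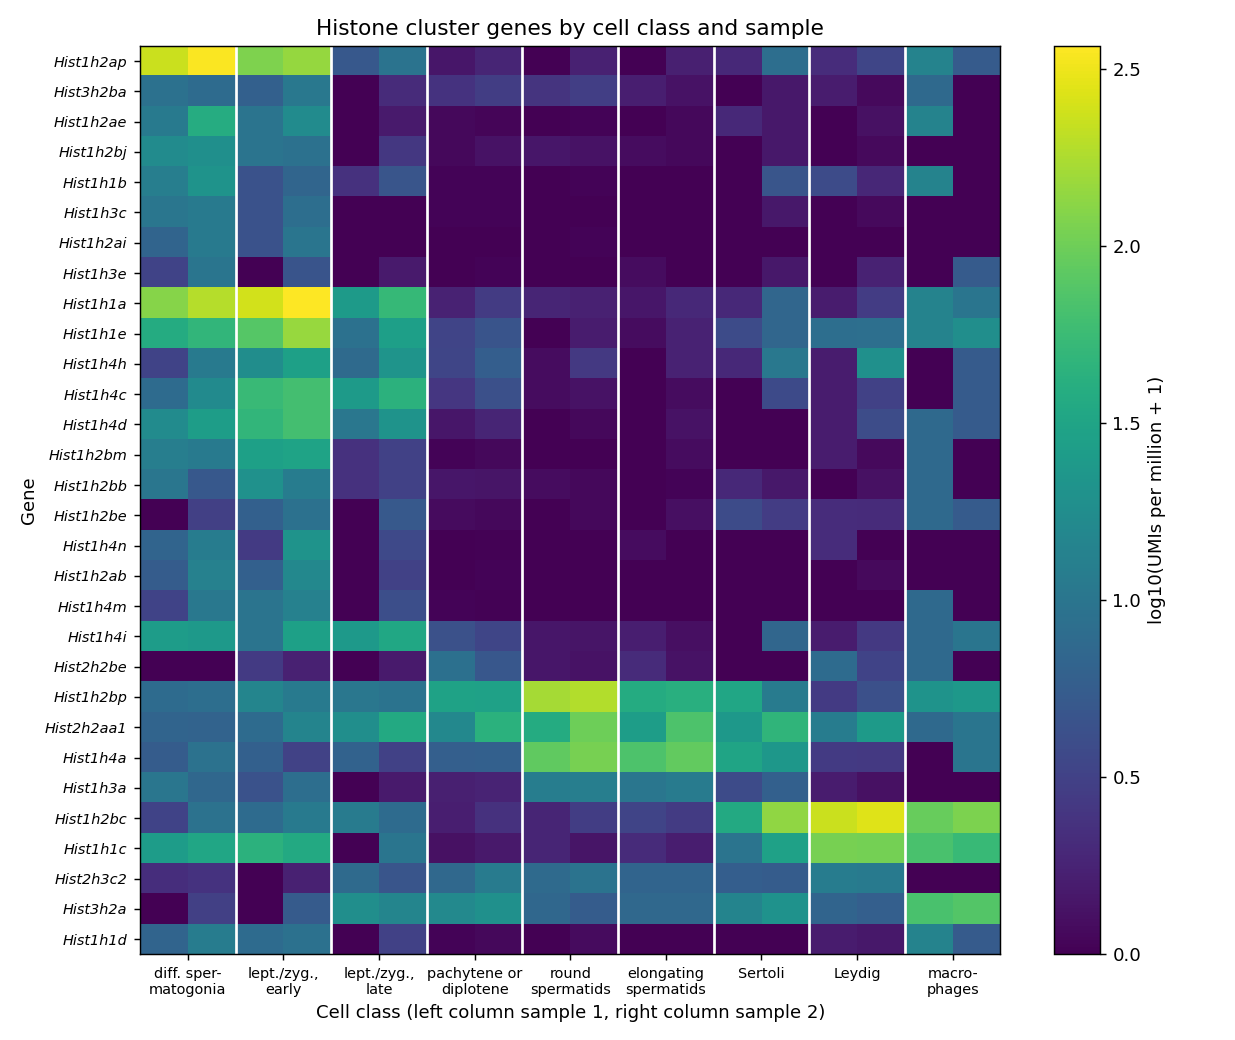
Level of the 30 histone cluster genes that passed the filter on low counts (rows), as log10 of CPM plus 1 (colour), in each cell class (columns, on the left sample 1 and on the right sample 2). Hist1h1a and Hist1h2ap are bright in differentiating spermatogonia and the early leptotene or zygotene cluster. Hist1h2bp, Hist1h4a and Hist2h2aa1 are bright in spermatids, and Hist1h2bc and Hist1h1c in Leydig cells and macrophages.

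Linker histone genes made up the largest part of the rise from differentiating spermatogonia into the early leptotene or zygotene cluster. Hist1h1a, which encodes H1.1, stood at 125 and 188 CPM in differentiating spermatogonia, 243 and 367 in the early leptotene or zygotene cluster, and 24.2 and 51.9 in the late one. Hist1h1e (H1.4) followed the same course, from 36.8 and 47.4 to 75.7 and 147 and then 8.07 and 27.0 CPM. In both genes both samples of the early cluster lay above both samples of the other 2 groups. As a family, H1 genes went from 205 and 299 CPM to 372 and 563, and then to 33.6 and 93.8. Hist1h1b (H1.5) was at 11.5 and 19.9 CPM in spermatogonia and at 3.44 and 5.89 in the early cluster and so, unlike Hist1h1a and Hist1h1e, was lower there in both samples, although this difference did not pass the test below (edgeR adjusted p = 0.0645).

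Among core histone genes, Hist1h2ap, an H2A gene, was highest in differentiating spermatogonia. It had 228 and 358 CPM there, 115 and 144 in the early cluster and 4.04 and 8.48 in the late cluster. The groups did not overlap. Of the 7 H4 genes tested, Hist1h4c, Hist1h4h and Hist1h4d were higher in the early cluster than in spermatogonia and the other 4 did not pass. Hist1h4c had 6.90 and 15.8 CPM in spermatogonia, 53.4 and 61.9 in the early cluster and 24.2 and 44.0 in the late cluster. Hist1h4d had 16.1 and 26.1, 48.2 and 61.9, and then 9.42 and 19.6. Summed, H4 genes had 64.4 and 106 CPM in spermatogonia and 146 and 225 in the early cluster, whereas H2A genes had 266 and 440 and then 151 and 223. H2B genes had 66.7 and 68.0 and then 103 and 107, and H3 genes 24.2 and 39.8 and then 10.3 and 27.3.

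Tests across all genes (edgeR quasi-likelihood, sample as a block, Benjamini-Hochberg adjusted p under 0.05) covered 29 of the 64 histone genes when the clusters were kept apart, a split chosen after the data had been seen. From spermatogonia to the early cluster 7 rose, where 12.9% of all 17112 genes rose, and 1 fell (12.7% of all genes). The 7 were Hist1h2be (log2 change 2.54), Hist1h4c (2.46 ± 0.43, SE, adjusted p = 1.92e-06), Hist1h4h (1.92), Hist1h2bm (1.53), Hist1h4d (1.51), Hist1h1e (1.51 ± 0.33, adjusted p = 0.000142) and Hist1h1a (1.09 ± 0.27, adjusted p = 0.000764), each higher in both samples. The gene that fell was Hist1h2ap (−1.04 ± 0.28, adjusted p = 0.00267). The median of the 29 was 0.58 and that of all genes 0.08.

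From the early to the late cluster 16 of the 29 fell (10.8% of all genes) and 3 rose (11.5%), and the median of the 29 was −2.21 against −0.00 for all genes. Hist1h2ap fell by 4.18 ± 0.41 on the log2 scale (edgeR adjusted p = 9.83e-16) and Hist1h1a by 2.83 ± 0.30 (adjusted p = 5.41e-14). Hist1h2ae fell by 4.93, and the H2B gene Hist1h2bm and the H3 gene Hist1h3a by 3.73 and 3.72. Hist1h2ai and Hist1h3c had no UMI in the late cluster, against 14 and 12 in the early one, and were at least 6.33-fold and 5.43-fold lower (with a floor of 3 counts over both samples). The 3 that rose were Hist2h3c2 (3.29), Hist3h2a (2.50) and Hist2h2aa1 (1.60), all of them outside chromosome 13.

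With the leptotene or zygotene class taken as 1, 30 of the 64 genes passed the filter on low counts, a filter that a gene can pass through 1 class alone. In that fit 4 were higher than in spermatogonia (20.4% of all 18179 genes) and 4 were lower (13.5%), with a median of 0.23 against 0.28 for all genes. Higher were Hist3h2a (3.26), Hist1h4c (2.33 ± 0.42, edgeR adjusted p = 1.35e-06), Hist2h2aa1 (2.23) and Hist1h4h (1.83). Lower were Hist1h2ap (−1.96 ± 0.29, adjusted p = 2.60e-09), Hist1h2ae (−1.79), Hist1h1b (−1.78) and Hist1h2bj (−1.73). Hist1h1a, which rose into the early and fell into the late cluster, did not pass in that fit. The 4 lower became 14 of 33 with doublets kept (19.7% of all genes) and 7 of 34 with at least 2000 UMIs per cell (16%). Both settings redraw the clusters, so the class is not made of the same cells. With doublets kept it took in a cluster of 1245 cells led by Cks2, Calm2 and Rsph1, which also led a pachytene or diplotene cluster as reported. With at least 2000 UMIs its cluster led by Sdk1 held 225 cells, against 1037 as reported.

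Whether histone gene RNA went with the S phase program was examined within a class. Cells were ranked in each sample by the share of their UMIs in 42 replication genes (Mcm2 to Mcm7, Pcna and others, no histone gene among them), and split into 3 groups of equal size, low, middle and high, which are ranges and not cell types; the high group was compared with the low one. In differentiating spermatogonia the summed histone level went from 455 through 573 to 875 CPM over the groups of sample 1, and from 467 through 897 to 1603 in sample 2. Hist1h2ap went from 123 through 212 to 360.5 CPM and from 135 through 339 to 649. Hist1h1a went from 85.6 through 99.8 to 199, and from 54.7 through 177 to 362. The level rose from group to group in both samples for the sum and for these genes, at similar depth (median UMIs 2187, 2297 and 2016 in sample 1, and 2387, 2712 and 2324 in sample 2).

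Of the 7 histone genes that passed the filter there, 3 were higher in the high group (3.4% of all 7273 genes) and 0 lower (2.31%; also 0 at an unadjusted p under 0.05 and 0 with DESeq2). Hist1h1a was higher by 2.19 ± 0.23 on the log2 scale (edgeR adjusted p = 8.03e-19), and Hist1h2ap by 2.07 ± 0.17 (adjusted p = 2.28e-28), each in both samples. Hist1h1e passed at 1.34 ± 0.38 (adjusted p = 0.0125), but its samples went opposite ways, with 47.9 and 33.8 CPM in the low and high group of sample 1 and 15.6 and 91.6 in sample 2. The count of 3 became 1 with DESeq2, and without the sample as a block no gene in the whole table passed. Hist1h2ap alone passed with DESeq2.

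In the leptotene or zygotene class the summed level went from 209 through 406 to 814 CPM over the groups of sample 1, and from 397 through 528 to 1199 in sample 2. Of 10 genes that passed the filter 6 were higher in the high group (18.7% of all 8721 genes) and 0 lower (14.8%; 0 at an unadjusted p under 0.05 and 0 with DESeq2). With doublets kept, where the class took in further cells, the 6 became 13 of 17 (30% of all genes). As reported they were Hist1h2bm (4.08), Hist1h2ap (3.87 ± 0.32, edgeR adjusted p = 6.64e-10), Hist1h1a (2.43 ± 0.21, adjusted p = 1.35e-09), Hist1h1c (2.11), Hist1h1e (1.79) and Hist1h4d (1.49). The share of cells from the early cluster rose over the groups as well, from 19.7% through 50.8% to 93.8% in sample 1 and from 18.3% through 46.9% to 88.5% in sample 2. Within the early cluster alone, a choice made after the data had been seen, 3 of 7 genes were higher (7.43% of all genes) and 0 lower (4.61%). These were Hist1h2ap (2.11), Hist1h2bm (1.86) and Hist1h1a (1.21), while Hist1h1c, Hist1h1e and Hist1h4d stood at 0.21, 0.28 and 0.65 and did not pass.

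**Figure D3:**
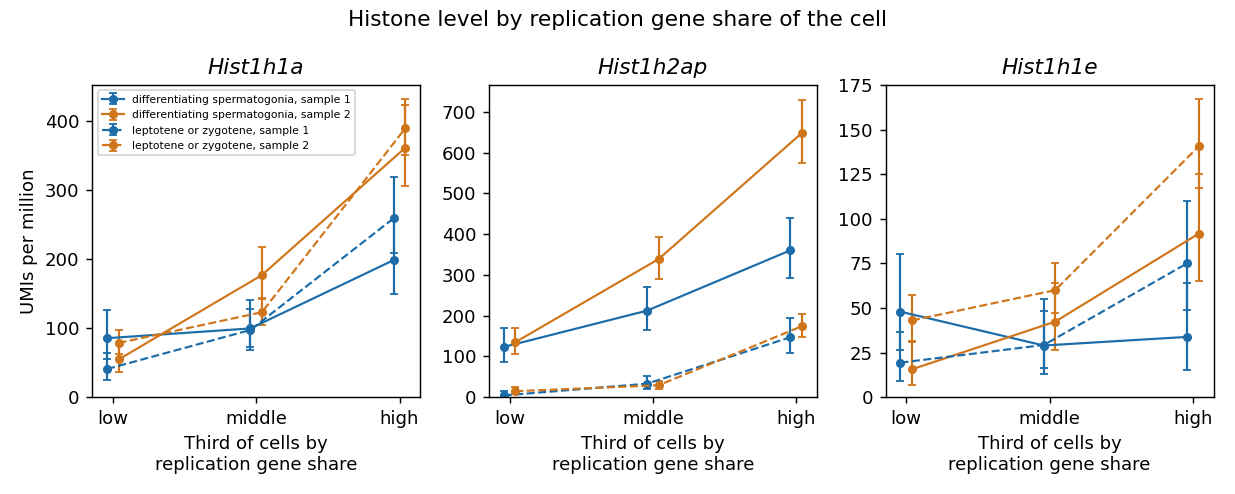
CPM (vertical axes) of histone cluster genes, Hist1h1a and Hist1h2ap among them, in the low, middle and high group by replication gene share (horizontal axis). Cells are differentiating spermatogonia and the leptotene or zygotene class, with 1 line per sample and exact Poisson 95% intervals. Hist1h1a and Hist1h2ap rise at each step in both samples and both classes.

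By the pachytene or diplotene stage most of these genes were close to zero. From the leptotene or zygotene class, 23 of 30 histone genes fell (38.1% of all genes) and 4 rose (27%), and the median was −4.22 against −0.32 for all genes. Hist1h1a was at 0.761 and 1.78 CPM, where it fell by 6.75 ± 0.35 on the log2 scale (edgeR adjusted p = 1.38e-48). Hist1h2ap was at 0.444 and 0.85, where it fell by 6.36 ± 0.37 (adjusted p = 9.08e-41). Both lay below the level in low-count barcodes (4.64 and 2.78 CPM). Hist1h2ai had no UMI in this class, against 14 before, and was at least 53.4-fold lower. The falls of Hist1h4n (−7.24), Hist1h4m (−6.54), Hist1h2bm (−6.52), Hist1h2ab (−6.50) and Hist1h2ae (−5.55) covered the H4, H2B and H2A families. The falls of Hist1h4n, Hist1h4m and Hist1h2ab did not pass with DESeq2.

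The 4 genes that rose into this class were Hist2h2be (3.01 ± 0.74, edgeR adjusted p = 0.000157), Hist2h3c2 (1.71), Hist1h2bp (1.63 ± 0.33, adjusted p = 4.91e-06) and Hist3h2a (0.90 ± 0.36, adjusted p = 0.0212). Hist2h2be, an H2B gene on chromosome 3, was the one gene of the 39 whose highest class this was, at 7.80 and 3.95 CPM, against 0 and 0 in spermatogonia and 0.414 and 0.322 in round spermatids. Hist3h2a, an H2A gene on chromosome 11, had 17.5 and 13.8 CPM in the late cluster, 15.3 and 18.4 in pachytene or diplotene spermatocytes and 13.9 in low-count barcodes. Its rise turned to −0.16 with doublets kept, which redraws the clusters, and did not pass with cells of at least 2000 UMIs (0.32). Hist1h2bp lay, in both samples of this class, below its level in low-count barcodes. Both levels are given below. The part of free RNA in its rise was not tested.

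Spermatids held a different set, led by 1 gene each of H2B, H2A, H4 and H3. Hist1h2bp, an H2B gene, went from 29.0 and 28.7 CPM in pachytene or diplotene spermatocytes to 164 and 187 in round and 36.6 and 41.0 in elongating spermatids. Its level in elongating spermatids of sample 1 was close to that in low-count barcodes, given below. Hist1h4a, an H4 gene, went from 5.01 and 5.10 to 86.6 and 109 and stayed at 69.3 and 88.7. Hist1h3a, an H3 gene, went from 0.698 and 0.795 to 11.2 and 11.6, and then to 9.14 and 10.7. For these 3 both samples of round spermatids lay above both samples of the class before. Hist2h2aa1, an H2A gene, had 14.7 and 42.7, 37.1 and 100.0, and 25.5 and 68.9 CPM, so that the samples of neighbouring classes overlapped while each sample rose and fell on its own.

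Those 4 genes rose from pachytene or diplotene spermatocytes to round spermatids (32.7% of all genes did), Hist1h4a by 4.54 ± 0.30 (edgeR adjusted p = 3.77e-36), Hist1h3a by 4.16 ± 0.39 (adjusted p = 3.31e-21), Hist1h2bp by 2.88 ± 0.27 (adjusted p = 1.41e-21) and Hist2h2aa1 by 1.55 ± 0.26 (adjusted p = 2.33e-08). Another 7 of the 30 fell (34.5% of all genes): Hist2h2be (−3.49 ± 0.56), Hist1h4c (−2.89), Hist1h1e (−2.67), Hist1h4i (−2.57), Hist1h4d (−2.48), Hist1h4h (−1.73) and Hist3h2a (−1.43). The median of the 30 was −0.66 against −0.16 for all genes. Hist1h2bp made up a large part of the spermatid level: without it the mean summed level of round spermatids was 201 CPM in place of 377, and that of pachytene or diplotene spermatocytes 88.3 in place of 117. From round to elongating spermatids 2 fell (16.5% of all genes), Hist1h2bp by 1.75 ± 0.26 (adjusted p = 2.35e-09) and Hist3h2ba by 1.64 ± 0.68 (adjusted p = 0.0479), of which Hist3h2ba did not pass with DESeq2. None of 30 rose in that step (17.8% of all genes; 2 at an unadjusted p under 0.05, and 1 passed with DESeq2). With doublets kept, which redraws the clusters, 8 of 33 rose in that step (26.3% of all genes) and 1 fell (11%).

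The spermatid genes were also detected in Sertoli cells, where Hist1h2bp had 31.7 and 10.7 CPM, Hist1h4a 30.7 and 21.8, and Hist2h2aa1 22.1 and 46.8. In low-count barcodes they were at 37.1, 28.8 and 17.6 CPM, and the 10 testis histone genes (Hist1h1t, H1fnt, Hils1 and others) summed to 1957 and 1949 CPM in the Sertoli class, against 2971 and 3590 in round spermatids. The part of spermatid RNA in these Sertoli values was not tested. In Leydig cells, with 106 and 94.8 CPM of testis histones, Hist1h2bp had 1.71 and 3.24 CPM and Hist1h4a 1.71 and 1.70.

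Hist1h2bc was high in all 3 somatic classes, and Hist1h1c in Leydig cells and macrophages. Hist1h2bc, an H2B gene, had 227 and 276 CPM in Leydig cells, 92.1 and 115 in macrophages, and 35.5 and 137 in Sertoli cells, against at most 10.8 in any germ class of either sample. Hist1h1c, which encodes H1.2, had 107 CPM in both samples of Leydig cells, 65.8 and 53.1 in macrophages, 8.64 and 28.7 in Sertoli cells, and 25.3 and 32.3 in differentiating spermatogonia. It had 43.0 and 35.4 in the early cluster and at most 9.01 in any later germ class. The 9 Leydig markers summed to 38181 and 56571 CPM in Leydig cells, 914 and 919.8 in macrophages, 225 and 463 in Sertoli cells, and 100.1 and 137 in spermatogonia. The Leydig class also held 6089 and 6494 CPM of the 13 Sertoli markers, macrophages held 1223 and 884, and the Sertoli class itself 6666 and 21083. The part of RNA from the other somatic classes in these levels was not tested. Hist3h2a was highest in macrophages, at 65.8 and 75.2 CPM, a class of 152029 and 226134 UMIs in all.

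In the mean of the 5 germ over the mean of the 3 somatic classes, 5 of 30 histone genes were higher in germ cells (26% of all genes) and 6 lower (25.3%), with a median of 0.48 against 0.26 for all genes. Lower were Hist1h2bc (−5.54 ± 0.23, edgeR adjusted p = 2.77e-65), Hist1h1c (−4.24 ± 0.27, adjusted p = 5.79e-37), Hist1h1b (−2.94 ± 0.81), Hist1h2be (−2.25 ± 0.74), Hist3h2a (−1.56 ± 0.26, adjusted p = 3.55e-08) and Hist1h1e (−0.77 ± 0.34, adjusted p = 0.0465). Higher were Hist1h3a (3.72 ± 1.02, adjusted p = 0.00101), Hist3h2ba (1.83 ± 0.71), Hist1h2bp (1.42 ± 0.25, adjusted p = 2.22e-07), Hist1h4a (1.39 ± 0.35, adjusted p = 0.000296) and Hist1h1a (0.94 ± 0.35, adjusted p = 0.0162). The shares called were below those of all genes in both directions. The contrast weighs the classes of each side equally, so a gene lower in it can still be highest in a germ class. By the mean of both samples Hist1h1b was highest in differentiating spermatogonia and Hist1h2be in the early leptotene or zygotene cluster. In sample 1 both were highest in macrophages. Hist1h1e was highest in the early cluster in both samples. With doublets kept the counts were 3 higher (15.8% of all genes) and 3 lower (22.4%), and Hist1h2bc and Hist1h1c stayed among the lower genes.

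Many H2A and H2B genes lie head to head and share the stretch between their starts. Among the 59 genes whose strand the RefSeq promoter entries gave there were 9 such pairs, with starts 164 to 268 bases apart, and in 6 of them at least 20 UMIs were counted. Genes without an entry, Hist1h2bc and Hist2h2be among them, were not looked at for pairs. In 3 of the 6 over 90% of the UMIs fell on 1 gene: Hist1h2bp had 7257 against 6 of Hist1h2an (99.9%), Hist1h2ap 1171 against 29 of Hist1h2br (97.6%), and Hist1h2ae 118 against 8 of Hist1h2bg (93.7%). The others were Hist1h2ai over Hist1h2bl (36 and 10), Hist1h2bj over Hist1h2ag (99 and 35) and Hist1h2ak over Hist1h2bn (29 and 18). The H2A gene led in 4 pairs and the H2B gene in 2, and the same gene led in both samples in 5 of the 6, all but the last named. In RefSeq, 6 of the 64 genes span more than 1000 bases, and all 6 are H2B genes, Hist1h2bp (14079), Hist1h2be (37455), Hist1h2bc (8282) and Hist2h2be (2667) among them, while the other 58, of which 11 are H2B genes, span 375 to 911 bases. Isoforms were not told apart in these counts. Hist1h2br and Hist1h2bq each span 3788 bases and have CCAAT at the same places before the start. Hist1h2bq and its partner Hist1h2ao had no UMI. How reads were split between that pair and the pair of Hist1h2ap and Hist1h2br was not tested.

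**Figure D4:**
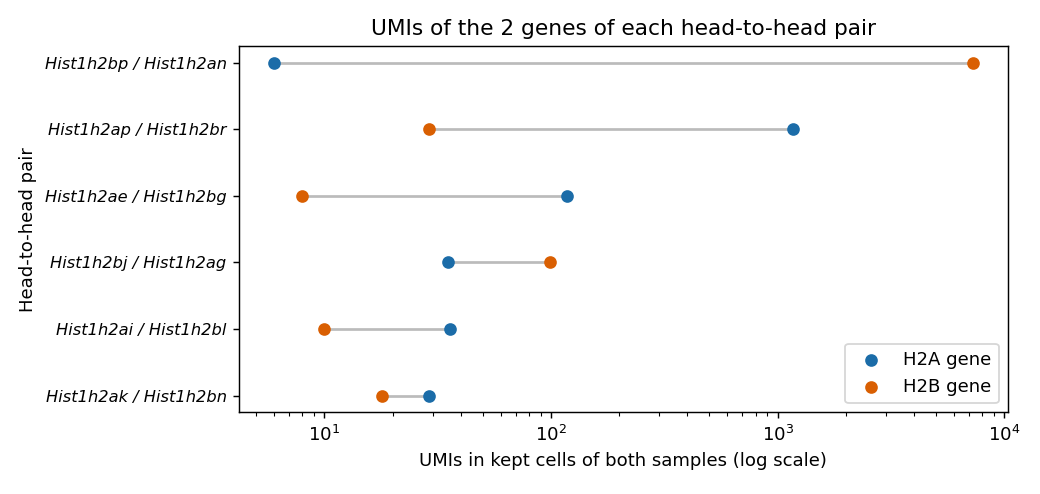
UMIs (horizontal axis, log scale) of the H2A and the H2B gene of each head-to-head pair with at least 20 UMIs (rows), summed over both samples. In the pair of Hist1h2bp and Hist1h2an the H2B gene had 7257 UMIs and the H2A gene 6.

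Of 24 genes of histone mRNA transcription and processing, 5 rose (12.9% of all genes) and 3 fell (12.7%) from spermatogonia to the early cluster, and 16 did not pass. Npat, whose product activates histone genes, had 116 and 68.0 CPM in spermatogonia, 250 and 169 in the early cluster and 35.0 and 33.9 in the late one. It rose by 1.34 ± 0.28 (edgeR adjusted p = 7.10e-05) and then fell by 2.34 ± 0.30 (adjusted p = 2.49e-10). Casp8ap2, whose product is a part of the histone locus body, rose by 1.33 ± 0.25 (adjusted p = 1.07e-05) and fell by 1.85 ± 0.26. Ccne2, a cyclin E gene, rose by 1.37 ± 0.28 and fell by 1.43 ± 0.29. Lsm10, of the U7 particle that cuts histone mRNA, went the other way, by −2.11 ± 0.37 and then 1.53 ± 0.39. Slbp was steadier, with 315 and 293, 380 and 340, and 400 and 310 CPM in the same 3 groups. In the high against the low group of spermatogonia 2 of 22 genes tested rose (3.4% of all genes), Slbp by 0.93 ± 0.16 (adjusted p = 2.24e-06) and Ccne2 by 0.98 ± 0.30 (adjusted p = 0.0235). From the leptotene or zygotene class to pachytene or diplotene spermatocytes 16 of 24 fell (38.1% of all genes) and 2 rose (27%).

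Of the 42 replication genes 27 fell (10.8% of all genes) and 2 rose (11.5%) from the early to the late cluster, and from spermatogonia to the early cluster 10 fell (12.7%) and 8 rose (12.9%). Of 18 histone chaperones, Asf1b rose by 1.01 ± 0.26 (edgeR adjusted p = 0.00147) into the early cluster (12.9% of all genes) and 4 fell (12.7%), and 11 fell (38.1%) and 2 rose (27%) into pachytene or diplotene spermatocytes, Nasp among the 2 at 1.19 ± 0.26. Of 11 replacement histone genes 6 fell into the early cluster (12.7% of all genes), Cenpa by 2.43 ± 0.32 (adjusted p = 6.07e-10), while 6 rose (11.5%) and 2 fell (10.8%) from the early to the late cluster. H2afx, the H2A variant phosphorylated at DNA breaks, rose there by 2.65 ± 0.28 (adjusted p = 7.60e-14) and H3f3a by 1.23 ± 0.26. Of the 7 testis histone genes tested 5 rose into the early cluster (12.9% of all genes), Hist1h2ba by 2.65 ± 0.37 (adjusted p = 2.64e-09), Hist1h2aa by 1.98 ± 0.27 and Hist1h1t by 1.74 ± 0.39. In round spermatids H1fnt and Hils1 rose by 5.59 ± 0.31 and 4.15 ± 0.28, where Hist1h2ba, Hist1h2aa and Hist1h1t fell by 4.32, 3.57 and 2.39.

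Chromatin over the histone genes was accessible in nearly all libraries. In the peak lists, called by the authors in each library, 57, 63, 64 and 63 of the 64 gene starts had a peak within 500 bp in the cKIT+ libraries (wild type 1 and 2, cKO 1 and 2), and 59, 63, 63 and 63 in the 4C-sorted libraries. That is 89.1% to 100% of the genes, against 57.5% to 69.4% of all 21887 protein-coding genes with a start in RefSeq. These protein-coding genes are meant by all genes in the comparisons of peaks. A peak was present in all 8 lists at 54 genes, in 7 lists at 7 genes, in 6 at Hist2h4, in 5 at Hist1h2af and in 3 at Hist1h1b. Hist1h1b had its peaks in cKIT+ wild type 2 and both cKIT+ cKO libraries and in none of the 4C-sorted libraries. The lists held 44697, 112518, 127222 and 121802 peaks in cKIT+ cells and 55756, 59417, 54059 and 57788 in 4C-sorted cells, and the read depth behind them is unknown.

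The peaks at histone genes were wide and of moderate height. Their median width was 686 to 1063 bp by library, against 224 to 358 bp over all peaks, and a peak covered up to 3 gene starts. The authors' fold enrichment at a histone start had a median of 4.24 to 4.91, and at the starts of all genes with a peak of 5.01 to 6.99. The highest means over the 8 lists were those of Hist1h4c (6.51), the peak shared by Hist1h2bp and Hist1h2an (6.19), Hist3h2ba (6.12), Hist1h3f (6.08), Hist1h4j (6.08), the peak shared by Hist1h2bc and Hist1h2ac (5.98), Hist1h1c (5.48) and Hist1h4k (5.41). The start of Hist1h4f, a gene with no UMI in the single-cell samples, had a peak in all 8 lists at folds of 4.58 to 6.02.

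**Figure D5:**
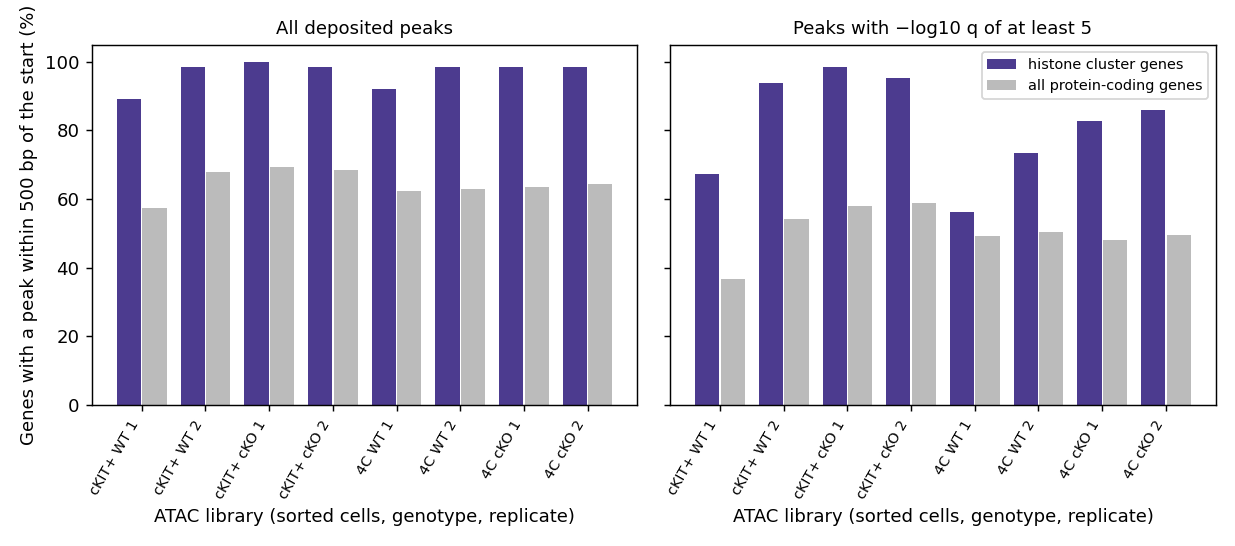
Share of genes (vertical axis, percent) with a peak within 500 bp of the start in each of the 8 ATAC libraries (horizontal axis). Bars are for the 64 histone cluster genes and for all protein-coding genes, with all peaks and with those whose −log10 q reached 5. Histone genes stand at 89.1% to 100% with all peaks, and all protein-coding genes at 57.5% to 69.4%.

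Between genotypes no histone gene start gained or lost a peak in both libraries of a pair. In cKIT+ cells 0 of 64 starts had a peak in the cKO libraries alone, in both of them (1.35% of all genes), and 0 the reverse (0.123%). In 4C-sorted cells both counts were 0 as well (1.03% and 0.498%). In cells of both genotypes, 0 starts had a peak in all 4C-sorted and no cKIT+ library (0.777%) and 0 the reverse (0.749%). With at least 54 genes already at a peak in every list there was little room for a gain.

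Among stronger peaks, those whose −log10 q reached 5, a difference appeared in 4C-sorted cells. Wild-type libraries then had such a peak at 36 and 47 of the 64 starts and cKO libraries at 53 and 55, so the genotypes did not overlap, while all genes were at 49.1% and 50.5% against 48.2% and 49.5%. At 8 starts both cKO libraries but no wild-type library had one: Hist1h1a, Hist1h2ak and Hist1h2bn (which share a peak), Hist1h3c, Hist1h3d, Hist1h3i, Hist1h4d and Hist1h4f. The same held for 0.658% of all genes and for 3 of the 778 other genes of chromosome 13 (0.386%), and 0 histone starts went the other way (1.16% of all genes). All 8 starts had a peak in all 4 of these lists when no threshold was set. In cKIT+ cells 2 starts, Hist1h3b and Hist1h3h, were of this kind (3.59% of all genes) and 0 of the reverse (0.0137%). With 2 libraries a group these counts carry no test, and whether the difference lies in peak strength or in the depth of the libraries was not tested.

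Over the 3 clusters of chromosome 13, with 5 kb on either side, there were 44, 59, 71 and 70 peaks in cKIT+ and 40, 43, 43 and 43 in 4C-sorted libraries. They covered 7.18% and 11.2% of the bases in cKIT+ wild type, 11.7% and 10.8% in cKIT+ cKO, 6.07% and 6.85% in 4C-sorted wild type and 7.62% in both 4C-sorted cKO libraries. In 4C-sorted cells both cKO libraries were above both wild-type libraries, by 1.16 percentage points (exact permutation test, two-sided, p = 0.333, which is the lowest possible with 2 against 2). The clusters held 0.0717% and 0.0724% of wild-type peaks and 0.0795% and 0.0744% of cKO peaks there, a log2 difference of 0.09 (exact p = 0.333). All of chromosome 13 held 3.39% of the peaks in both wild-type and 4.00% and 4.02% in the cKO libraries. As a share of the peaks on chromosome 13, the clusters went the other way, at 1.99% and 1.85% for the cKO against 2.11% and 2.14% for the wild-type libraries.

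In cKIT+ cells the share of peaks was 0.0984% and 0.0524% for wild-type libraries and 0.0558% and 0.0575% for cKO libraries, a log2 difference of −0.34 (exact permutation p = 1), and the covered part differed by 2.00 percentage points (exact p = 0.667). Both turned on wild-type library 1, the one with 44697 peaks: without it they were 0.11 and −0.02. In lists cut to equal length the share differed by 0.15 (exact p = 0.333), the opposite direction. Between stages, 4C-sorted libraries differed by −3.17 percentage points in the covered part (exact p = 0.0857; the smallest possible is 0.0286) and by 0.22 on the log2 scale in the share (exact p = 0.314), and the latter turned to −0.16 in lists of equal length (exact p = 0.0857). Without cKIT+ wild type 1 the stages did not overlap, at −4.18 points and 0.43, each with an exact p of 0.0286. In all, 6 such comparisons were made, and with all libraries none passed before any adjustment over the 6.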

How the data were processed

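Single-cell RNA was measured in 2 cKO samples and accessibility in 8 ATAC libraries. The authors deposited raw UMI count matrices, from Cell Ranger 7.1.0 for sample 1 (987771 barcodes) and 9.0.1 for sample 2 (17744 barcodes) per the file headers. Seurat 4.1.0, cutadapt, Bowtie2, MACS2 and mm10 are named in the submitters' processing notes, without settings. The peak lists were deposited per library, and the fold enrichment, −log10 p, −log10 q and score of a peak are the authors' own values. The score was not used.

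Cells with at least 1000 UMIs and at most 10% mitochondrial UMIs were kept (8098 and 14262), and 722 and 1361 doublets called by Scrublet in scanpy 1.11.5 were removed. Cells of both samples were clustered together (2000 variable genes without the listed genes, 30 components, 15 neighbours, Leiden resolution 1, leidenalg 0.10.2) and named from marker lists fixed before clustering; the rule by which they named a cluster was chosen with the clusters in view. The members and all lists were chosen with earlier results of these data known. Counts were summed per sample and class (at least 50 cells), filtered with filterByExpr, scaled by TMM and fitted with edgeR 4.0.16 (R 4.3.3), with the sample as a block because classes of a sample come from 1 suspension. P-values were adjusted over all genes tested at a threshold of 0.05. SE is the absolute log2 change divided by the root of F. Low, middle and high replication groups needed at least 150 cells per class and sample. Named histone genes were the 12 with most UMIs, up to 8 called in each direction per comparison, and the 10 with the highest mean fold at the start; of other lists, up to 4 in each direction. Genes that illustrate where a family was highest, such as Hist1h4i and Hist1h2bj, were also named where they passed a test.

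Peak shares and covered bases were compared by two-sided exact permutation tests over libraries (scipy 1.17.1). Scripts were tested on simulated data. Alternatives were DESeq2 1.42.0, no filter, doublets kept, at least 2000 UMIs, no replicate block, 2 in place of 3 replication groups, stricter peaks, lists of equal length, other windows and each library left out.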

Additional observations from a re-analysis of the deposited data

Results flagged for a closer look

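Within each sort, 3 values of single libraries stood apart from the other 3 libraries of that sort, by a gap to the nearest one that was large against the whole range. In all, 6 groups of 4 libraries were looked at. For continuous values chance alone does this in about 1 group in 20. Counts of starts have ties, so that rate does not apply to them. The share of peaks in the chromosome 13 histone clusters was 0.0984% in cKIT+ wild type 1, against 0.0524% to 0.0575% in the other cKIT+ libraries. The same library had a peak at 57 of the 64 histone gene starts, against 63, 64 and 63. Among 4C-sorted libraries, wild type 1 had a peak at 59 starts and the other 3 at 63 each. cKIT+ wild type 1 has the shortest list of all 8 libraries, 44697 peaks against 112518 to 127222 in its sort, while 4C-sorted wild type 1, with 55756 peaks, lies within the range of its sort. The part of list length in these values was not tested.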

How the results depend on the processing

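The falls of histone genes into pachytene or diplotene spermatocytes numbered 23 of 30 as reported (38.1% of all genes). Under the alternatives they ran from 19 of 30 with DESeq2 (30.7%) to 31 of 61 without the filter on low counts (18.1%). From there to round spermatids the alternatives gave 4 to 6 higher (25% to 37% of all genes) and 5 to 8 lower (23.4% to 32.8%). These counts stayed within 1.5 times of the reported ones, but the number of histone genes tested was not the same. Of 279 values of named histone genes under alternatives, 232 kept direction and side of the threshold, 46 kept direction but did not pass, and 1 reversed: Hist3h2a into pachytene or diplotene spermatocytes, −0.16 with doublets kept. DESeq2 size factors shifted the median of all genes by over 0.1 in 4 steps (into the leptotene or zygotene class from 0.28 to 0.02, into pachytene or diplotene spermatocytes from −0.32 to 0.05, into round spermatids from −0.16 to 0.29, and into elongating spermatids from 0.09 to 0.27). No direction of a named histone gene flipped with it.

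With doublets kept, which redraws all clusters, the counts of histone genes, each with the share of all genes called in the same fit, were 3 higher (15.8%) and 3 lower (22.4%) for germ over somatic cells, 14 lower (19.7%) in the leptotene or zygotene class than in spermatogonia, 8 higher (26.3%) and 1 lower (11%) in elongating than in round spermatids, and 13 higher (30%) and 1 lower (27.9%) in the high replication group of the leptotene or zygotene class. Summed levels were then 224 CPM in that class, 350.2 in Leydig cells and 261 in macrophages (means of both samples, against 558, 440.1 and 376). The leptotene or zygotene class then took in a cluster whose leading genes also led a pachytene or diplotene cluster as reported. With at least 2000 UMIs per cell 7 were lower (16%) in the leptotene or zygotene class, 1 was higher (17.9%) in elongating spermatids, and the summed levels of that class and of macrophages were 364 and 335 CPM. Without the filter on low counts 7 were higher (25.8%) in pachytene or diplotene spermatocytes, 1 was lower (9.47%) in elongating spermatids and 11 were higher (7.27%) in the high replication group of the leptotene or zygotene class. With DESeq2 1 was higher (20%) and 1 lower (10.8%) in elongating spermatids, and 1 was higher (0.33%) in the high replication group of spermatogonia. Split into its clusters, the leptotene or zygotene class gave 7 higher (12.9%) and 1 lower (12.7%; early cluster over spermatogonia), and the replication groups of the early cluster alone gave 3 higher (7.43%); both were chosen after seeing the data. Without Hist1h2bp the summed level was 88.3 CPM in pachytene or diplotene spermatocytes and 201 in round spermatids. Leaving out either sample left 1 per class and no residual to test; the summed level of germ over somatic classes was then −0.14 to 0.0144, which changed sign without sample 1.

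With no replicate block 1 histone gene was lower (11.5%) in elongating spermatids and 0 were higher (0%) in the high replication group of spermatogonia; other counts stayed within 1.5 times. For the peak lists the replicate numbers pair no libraries by label. With the number as a replicate block the exact permutation p was 1 for both measures in cKIT+ cells, 0.5 for both in 4C-sorted cells (the smallest possible), and 0.278 for the share and 0.111 for the covered part between stages. In lists of equal length the share differed by 0.15 between genotypes in cKIT+ cells and by −0.16 between stages. In those lists 1 of the 64 starts gained a peak in 4C-sorted cKO cells. Between stages 1 start was accessible in 4C-sorted cells alone and 1 in cKIT+ cells alone. Shares of all genes are not given here for these counts. With a −log10 q of at least 5, 36 starts had a peak in 4C-sorted wild type 1. Starts with such a peak in cKO libraries alone numbered 2 in cKIT+ (3.59% of all genes) and 8 in 4C-sorted cells (0.658%). Leaving out 1 library at a time, the cKIT+ genotype difference ranged from −0.80 to 0.11 in share and from −0.0244 to 4.03 points in covered bases, positive in share and negative in covered bases without cKIT+ wild type 1. The stage difference ranged from 0.13 to 0.43 in share and from −4.18 to −2.69 points, and passed without that library. Starts with a peak in cKO alone numbered 0 to 6 in cKIT+ cells (6 without wild type 2, where 10.8% of all genes did). In 4C-sorted cells they numbered 0 to 4 (4 without wild type 2, against 2.23%). Starts in 1 stage alone numbered 0 to 1 either way. Hist1h2af had a peak in 4C-sorted cells alone without cKIT+ cKO 1 (0.937% of all genes). Hist1h1b had one in cKIT+ cells alone without cKIT+ wild type 1 (3.84%). None of the 25 genes under 20 UMIs passed the filter on low counts.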
